A study of Mus musculus with 11 samples.

Results

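The short and long transcripts of Homer1 are 2 of the 63244 UCSC transcripts counted in TRAP-Seq libraries from the mouse hippocampus, and 2 of the 29599 that were tested. They were chosen by transcript identifier: uc007rlb.3 is Homer1-204, the short form, and uc007rlc.3 is Homer1-203, the long form. The 2 counts, their ratio within each library and their sum are described in sleep deprived (SD) and non-sleep deprived (NSD) mice.

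TRAP-Seq sequences RNA that is pulled down with tagged ribosomes. The libraries came from male CaMKII-Cre:Ribotag mice aged 2 to 3 months, in which Cre under a CaMKIIα promoter (the T29-1 line) switches the ribosomal protein Rpl22 to a form with an HA tag. SD mice were kept awake for 5 h from the start of the light phase by gentle handling, and NSD controls of the same genotype were not sleep deprived and were killed when the SD mice were. Cage taps and shakes had also been used on the days before the experiment. There were 5 NSD and 6 SD libraries, each from the pooled hippocampi of 2 mice. The tag follows the Cre line, and whole hippocampi were used, so tagged neurons of different subregions are not told apart. How evenly the tag marks the subregions was not tested here. RNA of other cells can be carried along. More RNA in a cell, more of it on ribosomes and more of the tagged cells cannot be told apart in such libraries.

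Homer1 encodes a scaffold protein of the postsynaptic density at excitatory synapses. The long proteins bind proline-rich stretches of group I metabotropic glutamate receptors, IP3 receptors and Shank proteins with an N-terminal EVH1 domain, and join to one another through a C-terminal coiled coil. The short protein, known as Homer1a, keeps the EVH1 domain and lacks the coiled coil, so it competes with the long proteins without linking their partners. Its mRNA is an immediate early transcript that neuronal activity raises, and Homer1a is well known as a transcript that rises in the brain with time awake.

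In GENCODE vM21 (GRCm38, the same build as mm10) both transcripts lie on the + strand of chromosome 13. Homer1-204 spans positions 93304495 to 93360462, with 5 exons, 5713 bases and 186 codons, and Homer1-203 spans 93304799 to 93403681, with 10 exons, 3052 bases and 366 codons. They share 527 coding bases, or 175 complete codons. The short form adds 31 coding bases of its own and the long form 571. The forms part at the end of exon 5, where the short form reads on into what is intron 5 of the long form and the long form is spliced to exon 6. The bases around this point are shown because they are where the 2 messages, and the proteins they encode, become different. The last 60 shared bases are in lower case, and the capitals mark the bases that the other form lacks: for Homer1-204 (chr13:93356020-93356113) the 31 coding bases and the stop codon, and for Homer1-203 (chr13:93356020-93356079 joined to chr13:93386345-93386380) the 36 bases of exon 6. The sequences are those of the GENCODE transcripts.
Homer1-204: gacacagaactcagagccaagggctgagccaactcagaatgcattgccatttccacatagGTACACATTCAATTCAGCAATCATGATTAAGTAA
Homer1-203: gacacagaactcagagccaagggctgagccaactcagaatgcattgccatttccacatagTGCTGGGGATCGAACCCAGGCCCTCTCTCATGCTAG

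What a read can say of each form differs. A stretch of 4383 bases at the 3′ end of Homer1-204 (chr13:93356080-93360462), which is 76.7% of its length, is in the exons of no other Homer1 transcript, and all of it lies within intron 5 of the long form (chr13:93356080-93386344). Reads from unspliced RNA of the long form could therefore fall there too. Homer1-203 has 0 bases that are absent from every other of the 12 Homer1 transcripts in GENCODE, and 6 others overlap its last exon. The counts were made on a UCSC annotation that is not used here, in which reads shared by several transcripts were set aside as ambiguous, so which bases gave the counts of each row was not determined. For this reason the ratio of the rows is compared between libraries and is not read as a ratio of molecules. Both 3′ UTRs hold the motif ATTTA, the core of AU-rich elements, counted on the sense strand with overlaps allowed: 17 times in the 4349 bases of Homer1-204 (3.91 per kb) and 11 times in the 1452 bases of Homer1-203 (7.58 per kb). The median of 10241 genes with a 3′ UTR of at least 1000 bases was 1.68 per kb and 90.5% held a match, with Homer1-204 above 90.1% and Homer1-203 above 99.7% of them.

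**Figure D1:**
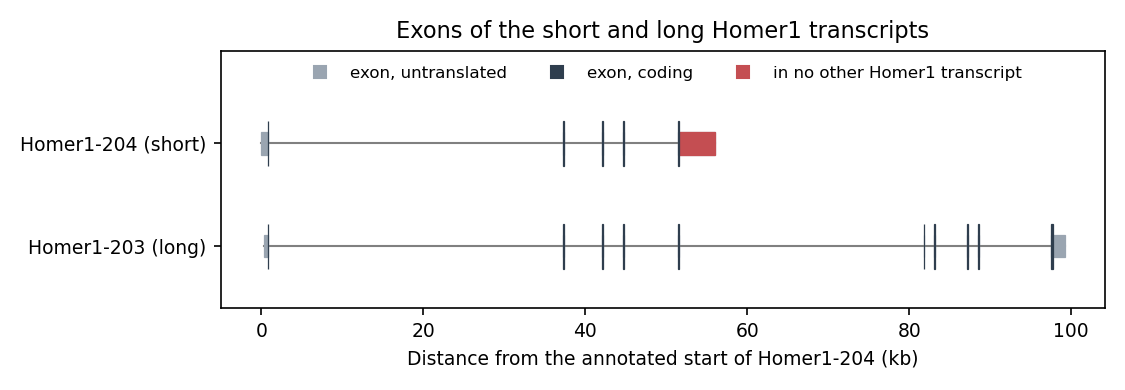
Exons of the short and long Homer1 transcripts in GENCODE vM21, with the distance from the start of Homer1-204 in kb on the x axis. Tall dark boxes are coding, low grey boxes untranslated, and the red box is the 4383-base stretch that no other Homer1 transcript has, which lies between exons 5 and 6 of the long form.

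Between 22074914 and 29549339 reads were counted on transcripts in a library (22074914 to 25984063 in NSD, 24139337 to 29549339 in SD), and 37.25% to 51.95% of reads were set aside as ambiguous. Reads outside annotated transcripts made up 10.93% to 27.64% in NSD and 9.97% to 21.13% in SD. NSD replicate 2 stood apart with 12.3% of reads that aligned to several places, against 5.88% to 6.23% in the others. Levels are given as CPM, the share of a library's counted reads that a transcript takes, with library sizes scaled by upper-quartile factors. Marker lists could not check the cell type here, because only 2 of 5 excitatory, 2 of 6 inhibitory and 1 of 8 glial marker genes had a named row. The paper compared TRAP samples with input RNA by qPCR. It reports that GFAP and GAD1 were depleted while CaMKIIα stayed high, without a difference between SD and NSD males. The named rows of inhibitory neurons (Gad2 and Slc32a1) summed to 22.31 to 101.0 CPM in NSD and 14.89 to 46.76 CPM in SD libraries, lower in SD (two-sided exact permutation test, p = 0.0303), with log2 fold changes of -1.39 for Gad2-201 and -1.65 for Slc32a1. The myelin gene Mbp lay at 167.4 to 194.8 CPM in NSD and 178.2 to 229.8 CPM in SD, higher in SD (exact permutation p = 0.0281). The excitatory markers summed to 304.2 to 389.1 CPM and 284.4 to 453.9 CPM (exact permutation p = 0.184), nearly all of it Neurod2 (log2 fold change 0.20). The named Camk2a row (uc008fbh.2) was lower in every SD library (1.48 to 2.315 CPM) than in any NSD library (2.317 to 2.765 CPM). Its log2 fold change was -0.41, and the ranges nearly met. Reads shared by several transcripts were set aside, so this low row is not read as the level of the Camk2a gene. By edgeR's quasi-likelihood test over all transcripts 0 of these 7 marker rows passed FDR 0.05 (0.0507% of all transcripts did) and 5 had an unadjusted p below 0.05 (4.45% of all), and DESeq2 called 0 (0.885% of all). Their names come from lists that the study made with these libraries, so the 5 of 7 carries that choice and is not read against the share of all transcripts. The part of these in the Homer1 values was not tested.

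The short transcript was higher in every sleep deprived library than in any NSD one. The NSD libraries held 691, 693, 728, 810 and 695 counts of uc007rlb.3 (replicates 2, 3, 4, 5 and B), and the SD libraries 1458, 1546, 1513, 1338, 1101 and 1145 (replicates 1, 2, 3, 4, 6 and D). As CPM these were 28.6, 29.95, 28.24, 33.93 and 28.94 in NSD and 49.53, 65.37, 58.37, 53.74, 39.46 and 41.15 in SD. The groups did not overlap, and the lowest SD library (replicate 6) lay 1.163 times above the highest NSD library (replicate 5). Such a separation, with every SD above every NSD library, was seen in 136 of the 29599 transcripts tested (0.459%). The mean rose from 29.93 CPM (coefficient of variation 7.77%, n = 5) to 51.27 CPM (19.5%, n = 6; two-sided exact permutation test over 462 assignments, p = 0.00649, where the smallest possible is 0.00216). In edgeR's quasi-likelihood test across all transcripts the log2 fold change was 0.78 (SE 0.12), a 1.71-fold rise with a 95% interval of 1.44 to 2.03, at FDR = 0.0139. Of all 29599 transcripts 15 passed FDR 0.05 (0.0507%), 13 of them higher in SD (0.0439%), and Homer1-204 had the 5th smallest p. Among the 6467 transcripts with a mean of at least 10 CPM its rise was the 6th largest. Whether FDR 0.05 was passed depended on individual libraries. With NSD replicate 4, NSD replicate B or SD replicate D left out the FDR was 0.0649, 0.109 and 0.0524. The log2 fold change was then 0.75, 0.76 and 0.83. The unadjusted p of edgeR's quasi-likelihood test was 1.63e-05, 2.25e-05 and 1.81e-06, against 2.66e-06 with all libraries. A replicate block over the 6 libraries with shared numbers also ended the call (edgeR FDR = 0.82).

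Counts of the long transcript, which carries the coiled coil, gave no detectable change once scaled to the library. uc007rlc.3 had 548, 662, 595, 667 and 628 counts in NSD and 712, 751, 675, 816, 755 and 682 in SD. The raw counts did not overlap, but the SD libraries were on the whole deeper, and the CPM did overlap: 22.68, 28.61, 23.08, 27.94 and 26.15 in NSD against 24.19, 31.75, 26.04, 32.78, 27.06 and 24.51 in SD. The highest values came from SD replicates 4 and 2 and the lowest from NSD replicates 2 and 4, with the other libraries of both groups interleaved between them. The means ± standard deviation were 25.69 ± 2.72 (n = 5) and 27.72 ± 3.68 CPM (n = 6; two-sided exact permutation test, p = 0.335). The fitted log2 fold change was 0.11 (SE 0.10), and its 95% interval of 0.93-fold to 1.25-fold leaves room for a rise of up to 1.25-fold. Its FDR was 0.9999 in edgeR's quasi-likelihood test.

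**Figure D2:**
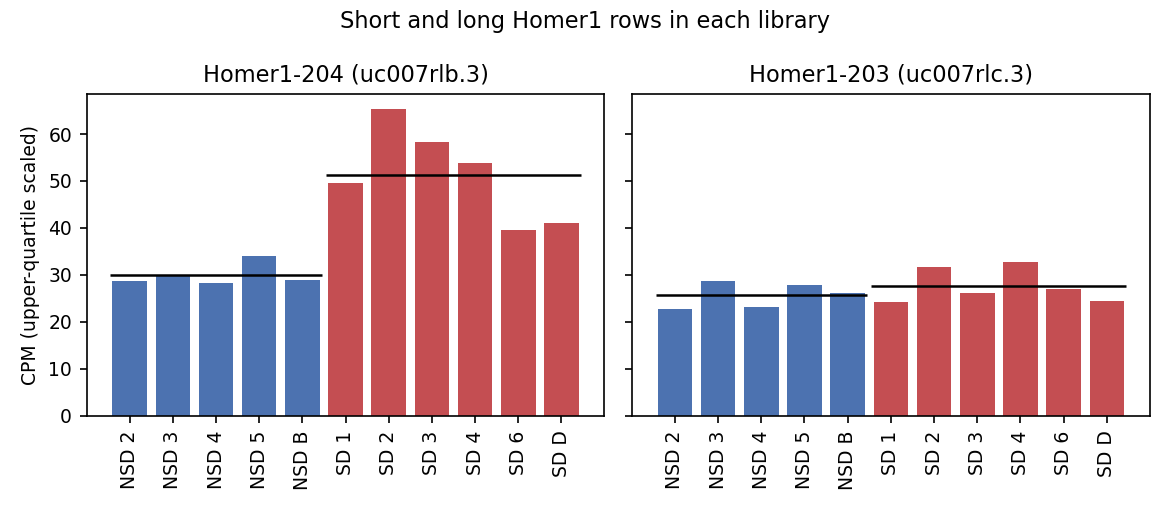
CPM of Homer1-204 (left) and Homer1-203 (right) in each of the 5 NSD (blue) and 6 SD (red) libraries, each bar 1 library and each black line the mean of its group. The short form lies between 28.24 and 33.93 CPM in NSD and between 39.46 and 65.37 CPM in SD. The groups of the long form overlap, at 22.68 to 28.61 CPM in NSD and 24.19 to 32.78 CPM in SD.

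The ratio of short to long counts within a library does not depend on how the library is scaled. It was 1.261, 1.047, 1.224, 1.214 and 1.107 in NSD, so the short row had somewhat more counts than the long row in each of these libraries. In SD it was 2.048, 2.059, 2.241, 1.64, 1.458 and 1.679. The groups did not overlap, and the lowest SD ratio (replicate 6) was 1.156 times the highest NSD ratio (replicate 2). The mean was 1.17 ± 0.0898 (n = 5) in NSD and 1.85 ± 0.304 (n = 6) in SD. On the log2 scale the means were 0.22 ± 0.11 and 0.87 ± 0.24, a difference of 0.65 (SE 0.11), or 1.57-fold (two-sided exact permutation test, p = 0.00433). Put as a share, the short form made up 53.86 ± 1.94% of the counts of both rows in NSD (n = 5) and 64.63 ± 3.81% in SD (n = 6). The lowest share was 51.14% in NSD replicate 3 (exact 95% binomial interval 48.45% to 53.84%) and the highest 69.15% in SD replicate 3 (67.17% to 71.08%), intervals that cover counting error only. A test of the 2 coefficients within edgeR's fit (diffSpliceDGE) gave a log2 difference of 0.67 at FDR = 0.00855. That test ran over 54 genes with several named transcripts, of which 11 (20.4%) passed FDR 0.05 and Homer1 had the 3rd smallest p, and these genes come from a list the study chose on the same libraries.

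**Figure D3:**
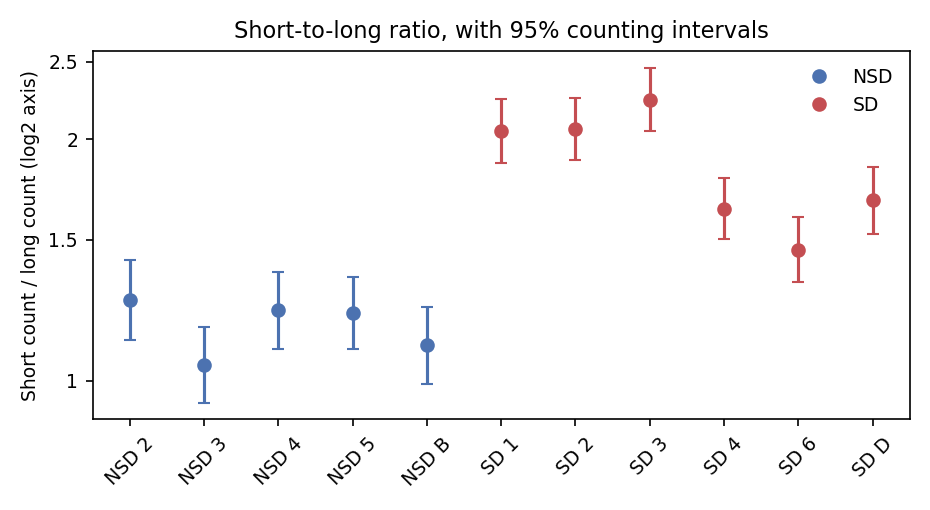
Ratio of short to long counts in each library on a log2 axis, with NSD in blue and SD in red and bars for exact 95% binomial intervals. The NSD ratios lie between 1.047 and 1.261 and the SD ratios between 1.458 and 2.241, with SD replicates 1, 2 and 3 above replicates 4, 6 and D.

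The sleep deprived libraries were more spread out in the ratio than the NSD ones. The standard deviation of the log2 ratio was 0.11 in NSD, where counting error alone would give 0.08, and 0.24 in SD, where it would give 0.07. The coefficient of variation of the CPM went from 7.77% in NSD to 19.5% in SD for the short form, and from 10.6% to 13.3% for the long form. No test of this difference in spread was run. Within the SD group, replicates 1, 2 and 3 had ratios of 2.048, 2.059 and 2.241 with 24677155, 25720201 and 24139337 counted reads. Replicates 4, 6 and D had lower ratios of 1.64, 1.458 and 1.679 with 27910679, 29549339 and 28748816 counted reads. Over the 11 libraries, as deviations from the group means, the log2 ratio was lower where more reads were counted (r = -0.841, rho = -0.845, permutation p = 0.00171 and 0.00174, adjusted over 4 relations 0.00684 and 0.00696), a relation chosen after seeing the data. Without SD replicates 3 and 6 r was -0.718, and in the 6 SD libraries alone it was -0.969 (exact permutation p = 0.00972). The SD libraries fell into clusters of 3 by depth, too few for a correlation within either. Between the groups the order was the other way, with the median depth (26815440 reads in SD, 24169899 in NSD) and the ratios both higher in SD. With the log10 of the counted reads as a covariate, chosen after seeing the data, the log2 ratio differed by 0.88 (exact permutation of the groups, p = 0.00216, the smallest possible).

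**Figure D4:**
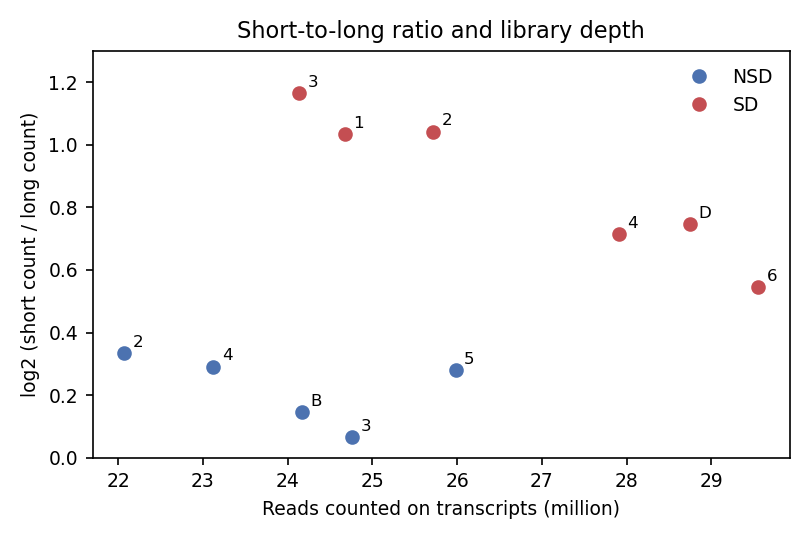
The log2 ratio of short to long counts against the number of reads counted on transcripts, with each point 1 library labelled by its replicate (NSD blue, SD red). SD replicates 1, 2 and 3 lie higher and to the left of SD replicates 4, 6 and D, and the NSD libraries lie lowest, at 22074914 to 25984063 reads.

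The sum of the 2 rows was higher in every SD than in any NSD library, by a smaller fold than the short form. It was 51.27, 58.56, 51.33, 61.87 and 55.08 CPM in NSD and 73.72, 97.12, 84.41, 86.52, 66.53 and 65.66 CPM in SD. The lowest SD value was that of replicate D and the highest NSD value that of replicate 5. The means were 55.62 ± 4.62 (n = 5) and 78.99 ± 12.5 CPM (n = 6; two-sided exact permutation test, p = 0.00649), and 91.3% of the difference lay in the short row. When both rows were replaced by their sum, the log2 fold change was 0.51 (SE 0.11), with a 95% interval of 1.22-fold to 1.66-fold, FDR = 0.128 (edgeR's quasi-likelihood test), so the sum was not called. The call depended on the setting: the FDR was 0.0316 with TMM normalization and 0.00133 with DESeq2, but 0.305 with the filter of at least 1 count in 1 library and 0.219 with the label series (numbered or lettered replicates) as a covariate. Leaving out SD replicate 1 also did so (FDR = 0.028).

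**Figure D5:**
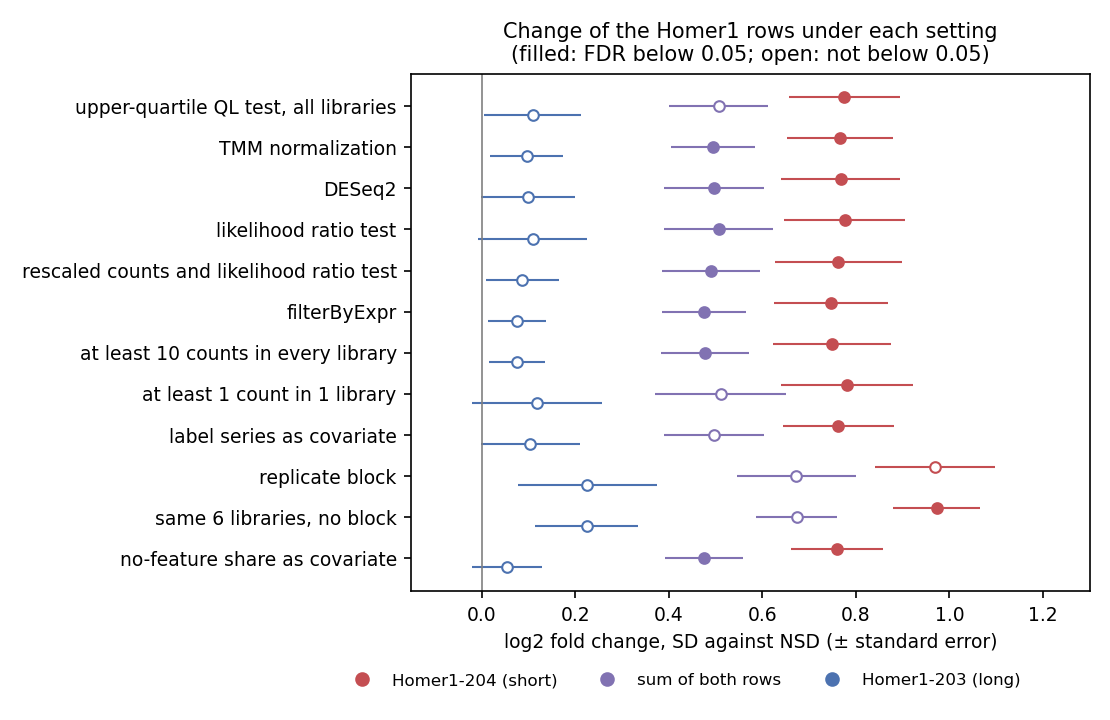
Fitted log2 fold changes of SD against NSD (points, with standard errors as bars) for the short row, the long row and their sum under each setting other than leaving out 1 library, with filled points below FDR 0.05. In the settings drawn, the short form lies between 0.75 and 0.97, the long form between 0.05 and 0.23, and the sum between 0.48 and 0.67.

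Of 20 proteins that bind Homer or sit with it in the postsynaptic density, 4 had a named row, which is too few to test the list. In edgeR's quasi-likelihood test 0 of them passed FDR 0.05, 0 had an unadjusted p below 0.05, and DESeq2 called 0, where the shares over all transcripts were 0.0507%, 4.45% and 0.885%, so counts of 0 among 4 rows say little. Shank1, a scaffold bound by Homer, lay at 313.4 ± 31.6 CPM in NSD (n = 5) and 275.6 ± 19.5 CPM in SD (n = 6), and Shank2 at 27.7 ± 1.76 and 24.74 ± 2.71 CPM. Dlgap1, which links Shank to PSD-95, and Dbn1, an actin-binding protein of spines that binds Homer, gave log2 fold changes of -0.17 and -0.20. All 4 estimates were below 0 (-0.20 to -0.16), with both groups overlapping for each, but these rows too were named from the study's lists, so their shared sign carries that choice.

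Of 27 other genes that neuronal activity regulates, 14 had a named row. In edgeR's quasi-likelihood test 0 passed FDR 0.05 and 11 had an unadjusted p below 0.05, as did 1317 of all 29599 transcripts (4.45%). DESeq2 called 6 of the 14 (Fos, Arc, Dusp1, Nr4a1, Fosb and Inhba), and 135 of the 15252 transcripts to which it gave an adjusted p (0.885%). There were 12 estimates above 0 and 2 below, and the median log2 fold change was 0.39 against 0.01 over all transcripts tested. These rows were named from lists that the study made with the same libraries. The median, the 11 and 6 of 14 and the share of estimates above 0 therefore carry that choice. The values of all transcripts are given beside them for scale only, and no excess among the 14 is read from them. The largest of the 14 estimates was that of Fos, an immediate early transcription factor, with 22.04 ± 8.49 CPM in NSD (n = 5) and 46.97 ± 9.79 CPM in SD (n = 6; log2 fold change 1.09, FDR = 0.052 in edgeR's quasi-likelihood test). Arc, which encodes a synaptic protein that takes part in AMPA receptor removal, lay at 8.785 ± 2.43 and 14.48 ± 3.61 CPM (log2 fold change 0.72, FDR = 0.301 in edgeR's test). The MAP kinase phosphatase Dusp1 gave 0.53, the transcription factors Nr4a1 and Fosb 0.58 and 0.46, and Inhba, an activin subunit, 0.45 on the log2 scale, each with groups that overlapped. Homer1-204 thus lay between Fos and Arc in size, with groups that did not overlap where those of both Fos and Arc did.

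The named transcripts whose deviations from their group means were most like those of Homer1-204 over the 11 libraries were Dnajb5 (Pearson r = 0.821), Acin1 (0.819), Mfsd2a (0.814), Adamts20 (0.775) and A930015D03Rik (0.752), out of 1905 with a mean of at least 1 CPM. Those most like the log2 ratio were Dio2 (0.857), 1700016P03Rik (0.821), Adamts20 (0.794), Pdia6 (0.775) and Gpt2 (0.755). Fos stood at rank 925 for the short form (r = 0.16) and at rank 201 for the ratio (r = 0.174). These are the highest of many correlations over few libraries, which share depth and scaling, and are given as a description.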

How the data were processed

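TRAP-Seq of hippocampal CaMKIIα neurons gave 11 libraries (5 NSD, 6 SD), grouped and numbered by their labels; these do not say more of separate batches. The authors trimmed reads with Trimmomatic 0.36, aligned them to mm10 with STAR 2.7.5, counted them with HTSeq in intersection-nonempty mode and deposited raw counts of 63244 UCSC transcripts and 5 tallies; a strand setting is not given in the sources used here. The kit was stranded. Between 22074914 and 29549339 reads were counted per library, so counting error is 2.75% to 4.03% of a group's typical Homer1 count.

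Here the tallies were dropped, as were transcripts seen (1 count or more) in fewer than 5 libraries. SD was compared with NSD in edgeR 4.0.16 (R 4.3.3) by its quasi-likelihood test, two-sided, with upper-quartile factors and p-values adjusted by Benjamini and Hochberg's method over all 29599 transcripts (FDR 0.05). The ratio and CPM were compared by exact permutation of libraries (scipy 1.17.1). The code was tested on simulated data. Rows were named by matching their fitted statistics to the study's supplementary lists (2257 named, within the rounding of those lists, a tolerance narrowed after a first pass). Named genes were both Homer1 rows, members of 2 lists past FDR 0.05 or else the 6 with the smallest p, and the 5 transcripts most like the short row and the ratio. The alternatives were TMM, DESeq2 1.42.0, the likelihood ratio test, rescaled counts, 3 filters, the label series (numbered or lettered replicates) and a replicate block, and each library left out. The share of reads outside transcripts and the counted reads as covariates were added after seeing the data. The members and lists were chosen with earlier results of these data known.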

Additional observations from a re-analysis of the deposited data

How the results depend on the processing

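The log2 fold change of Homer1-204 (0.78) kept its direction under all 22 alternatives and its call under 18. Homer1-203 remained uncalled, with an estimate above 0, under all 22 (0.05 to 0.14 with 1 library left out). With 1 library left out, the log2 fold change of Homer1-204 was 0.69 to 0.83 and the FDR 0.00418 to 0.109 (edgeR), the sum gave 0.43 to 0.55, the difference of the log2 ratio was 0.59 to 0.72 (exact permutation p = 0.00476 to 0.00952), and edgeR called 0 (without SD replicate D; 1178 at an unadjusted p below 0.05) to 78 (without SD replicate 1) transcripts against 15, with 2 and 1 without NSD replicates 4 and B, and 8 and 6 without SD replicates 3 and 6.

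The sum (0.51, not called, and not called under 14 of the 22) was called with TMM normalization (0.49), DESeq2 (0.50), the likelihood ratio test (0.51), rescaled counts with that test (0.49), filterByExpr (0.48), at least 10 counts in every library (0.48), the share of reads outside transcripts as a covariate (0.48) and without SD replicate 1 (0.52). The same settings gave 62, 135, 65, 275, 191, 311, 167 and 78 called transcripts, at least 1 count in 1 library gave 33, the label series as a covariate 8, and the 6 libraries with shared numbers 2. With the share of reads outside transcripts as a covariate Homer1-204 had a log2 fold change of 0.76 (FDR = 2.82e-05, edgeR). Against 13 higher and 2 lower with upper-quartile factors, DESeq2 called 93 higher and 42 lower, the rescaled counts 182 and 93, the likelihood ratio test 37 and 28, and the stricter filters 132 and 59 and 200 and 111, while at least 1 count in 1 library gave 11 and 22 and the share of reads outside transcripts as a covariate 85 and 82. The cause of these shifts was not tested.

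Replicates 2, 3 and 4 occur in both groups. Same-numbered libraries deviated from their group means in opposite ways (r = -0.59, -0.64 and -0.71 across transcripts), so the numbers were not taken as pairs. Differently numbered libraries of the 2 groups also deviated together or apart (r = 0.59, 0.64, 0.64 and 0.71 in 4 pairs and -0.53 and -0.69 in 2). With a replicate block over these 6 libraries Homer1-204 gave 0.97 (edgeR's quasi-likelihood test, unadjusted p = 3.49e-05, FDR = 0.82). With this block 0 transcripts were called by edgeR (467 at an unadjusted p below 0.05). The ratio differed by 0.74 (exact sign-flip p = 0.25, the smallest that 3 pairs allow). Without the block the same libraries gave 0.97 for Homer1-204 (edgeR FDR = 0.0119, called) and 0.74 for the ratio (exact permutation p = 0.1, also the smallest possible).

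Precision rests on 5 and 6 pooled libraries. At 548 to 1546 counts a library, counting error is below the spread between libraries. Ambiguous reads were not assigned to either row. Total RNA of the same samples was not analysed here.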

Other observations

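The log2 CPM deviations of the short and long rows from their group means had a Pearson r of 0.547 and a Spearman rho of 0.545 over 11 libraries (permutation p = 0.0846 and 0.0894, adjusted over 4 relations 0.147 and 0.132). Without SD replicates 2 and 6, the farthest from the median, r was 0.516. The other 3 relations were chosen after seeing the data. The log2 ratio and the share of reads outside annotated transcripts gave r = 0.511 and rho = 0.527 (permutation p = 0.11 and 0.0993, adjusted 0.147 and 0.132; r = 0.473 without NSD replicate 2 and SD replicate 1), and the log2 ratio and Fos gave r = 0.174 and rho = 0.273 (permutation p = 0.608 and 0.418, adjusted 0.608 and 0.418; r = 0.4 without NSD replicate B and SD replicate 1). The log2 ratio and the log10 of the counted reads gave the only relation of the 4 with an adjusted p below 0.05 (r = -0.841, rho = -0.845, permutation p = 0.00171 and 0.00174, adjusted 0.00684 and 0.00696), beside the clusters of depth given in the report.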
